A study of Mus musculus with 4 samples.

Results

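The genes described here are 10 antioxidant genes that are known targets of the transcription factor NRF2 (gene symbol Nfe2l2): Hmox1, Nqo1, Gclc, Gclm, Slc7a11, Gsr, Txnrd1, Prdx1, Srxn1 and Sod1. They were chosen by name, with earlier results of these data known. The array carried all 10 of them among its 35019 genes, with 13 probes in all. The cells were 3T3-L1, an established mouse fibroblast line that can be turned into fat cells in culture. Cells already differentiated into adipocytes were given daidzein, a soy isoflavone, at 25 uM together with a pig testis extract (PT) at 100 ug/ml, or daidzein alone at 25 uM, or PT alone at 100 ug/ml, or the vehicle PBS, in each case for 7 days. RNA of the 4 groups was hybridised to single-colour arrays of 60-base probes, 1 for each. With 1 array per group there is no replicate, so the differences below carry no p-value.

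NRF2 is held in the cytoplasm by KEAP1, which delivers it to a CUL3 ubiquitin ligase for degradation. Oxidants and electrophiles modify KEAP1, and NRF2 then enters the nucleus, pairs with a small MAF protein and binds antioxidant response elements near its target genes. Its targets serve glutathione and thioredoxin metabolism, detoxify quinones and break down heme, and NRF2 has also been linked to the differentiation of fat cells.

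The core of the antioxidant response element was searched as TGACNNNGC, with GCNNNGTCA as the same motif read on the other strand, in RefSeq promoter windows on GRCm38.p6 that run from 250 bases before to 50 bases after a gene's start. Of the 10 genes, 7 were in that table, and 5 of these 7 (71.4%) held the motif in at least 1 window, against 14% of 27025 genes. Counted by window, it stood in 5 of 9 windows of these genes (55.6%), against 12.4% of 32851 windows. The stretches that hold it are printed below so that the motif, in capitals, can be read beside the expression values. Each lies on the plus strand of the genome and shows the motif as GCNNNGTCA, at chr3:122245383-122245471 for Gclm, chr4:116685426-116685514 for Prdx1, chr16:90220666-90220754 for Sod1, chr10:82859074-82859162 for Txnrd1 and chr2:152105542-152105570 for Srxn1.
Gclm promoter: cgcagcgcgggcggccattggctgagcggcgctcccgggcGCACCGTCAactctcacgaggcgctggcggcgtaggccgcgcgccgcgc
Prdx1 promoter: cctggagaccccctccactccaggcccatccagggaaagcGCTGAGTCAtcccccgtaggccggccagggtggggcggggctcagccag
Sod1 promoter: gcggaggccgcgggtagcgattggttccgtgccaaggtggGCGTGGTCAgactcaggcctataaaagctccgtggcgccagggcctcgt
Txnrd1 promoter: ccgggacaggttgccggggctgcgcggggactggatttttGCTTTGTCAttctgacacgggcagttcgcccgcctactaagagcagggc
Srxn1 promoter: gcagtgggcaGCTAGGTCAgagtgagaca
The first base of the motif lies at -134 in Gclm, -133 in Prdx1, -56 in Sod1 and -92 in Txnrd1, counted from the gene's start, and at 29 in Srxn1, inside the transcribed part. Txnrd1 has 3 windows, and 1 of them holds the motif. Only these letters were searched, and other forms of the element were not. The Srxn1 window, for 1, also holds tgagtcagc before the start, which these letters leave out. The windows of Nqo1 and Slc7a11 hold no match to these letters, which says nothing of other forms or of sites outside the window. Hmox1, Gclc and Gsr are not in that table.

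All values are the background-subtracted signal of a probe divided by the 75th percentile of its own array, called scaled signal here. Differences are log2 ratios of 2 arrays. The 75th percentile was 360.9 on the daidzein+PT array, 405.4 on daidzein, 419.4 on PT and 371.1 on PBS. Between 49.7% and 51.35% of non-control spots were well above background, and no spot was saturated. The 4 arrays lay on 1 slide, with both PT arrays in row 2 and the other two in row 1, so PT and slide row cannot be told apart. The design gives each treatment in 2 pairs of arrays with no array in common, and the scatter of the difference between these pairs over genes was the measure of spread. Put as the SD of a log2 difference, it was 0.11 in the brightest 6117 genes, 0.14 in the middle 6116 and 0.33 in the dimmest 6116. This is not a replicate error, since it also holds any real joint effect of both treatments. How precise a value can be is set by there being 4 arrays.

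Relative to all genes, the NRF2 targets were slightly higher on both arrays that had daidzein, and with PT alone their median was close to that of all genes. None of the 9 measured members reached 1.5-fold in any of the 5 comparisons, in either direction. In such bulk RNA, fewer cells of a type and less RNA per cell cannot be told apart. Signal well above background was seen on every array for 9 of the 10 genes, and on the PBS array alone for Slc7a11. With arrays scaled on the 75th percentile, both arrays with daidzein stood above both without it for 9 of the 9 genes. With no background subtraction, quantile normalization or the deposited series table it was 8, all but Srxn1. The dimmer of the 2 Gsr probes did not show this order, at 4.57 on daidzein and 4.76 on PT. How many of all genes had this order was not counted. A looser measure, above the median of all genes in both daidzein pairs, held for all 9 members and for 34% of 18349 genes. Scaling on the array median moved every log2 difference by -0.20 for daidzein+PT over PBS, -0.07 for daidzein over PBS and -0.24 for PT over PBS, and that order then held for 3 genes, Gclm, Prdx1 and Sod1. Under median scaling the difference for daidzein+PT over PBS turned negative for 6 genes (Hmox1, Nqo1, Gclc, Txnrd1, Srxn1 and Gsr), and the gene-by-gene values below are those of the 75th percentile. On that scale daidzein gave the highest value for Hmox1, Nqo1, Gclc, Gclm and Txnrd1, and daidzein+PT for Srxn1, Gsr, Prdx1 and Sod1. The lowest value came from PT for 5 genes (Hmox1, Nqo1, Gclc, Txnrd1 and Gsr) and from PBS for 4 (Gclm, Srxn1, Prdx1 and Sod1).

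**Figure D1:**
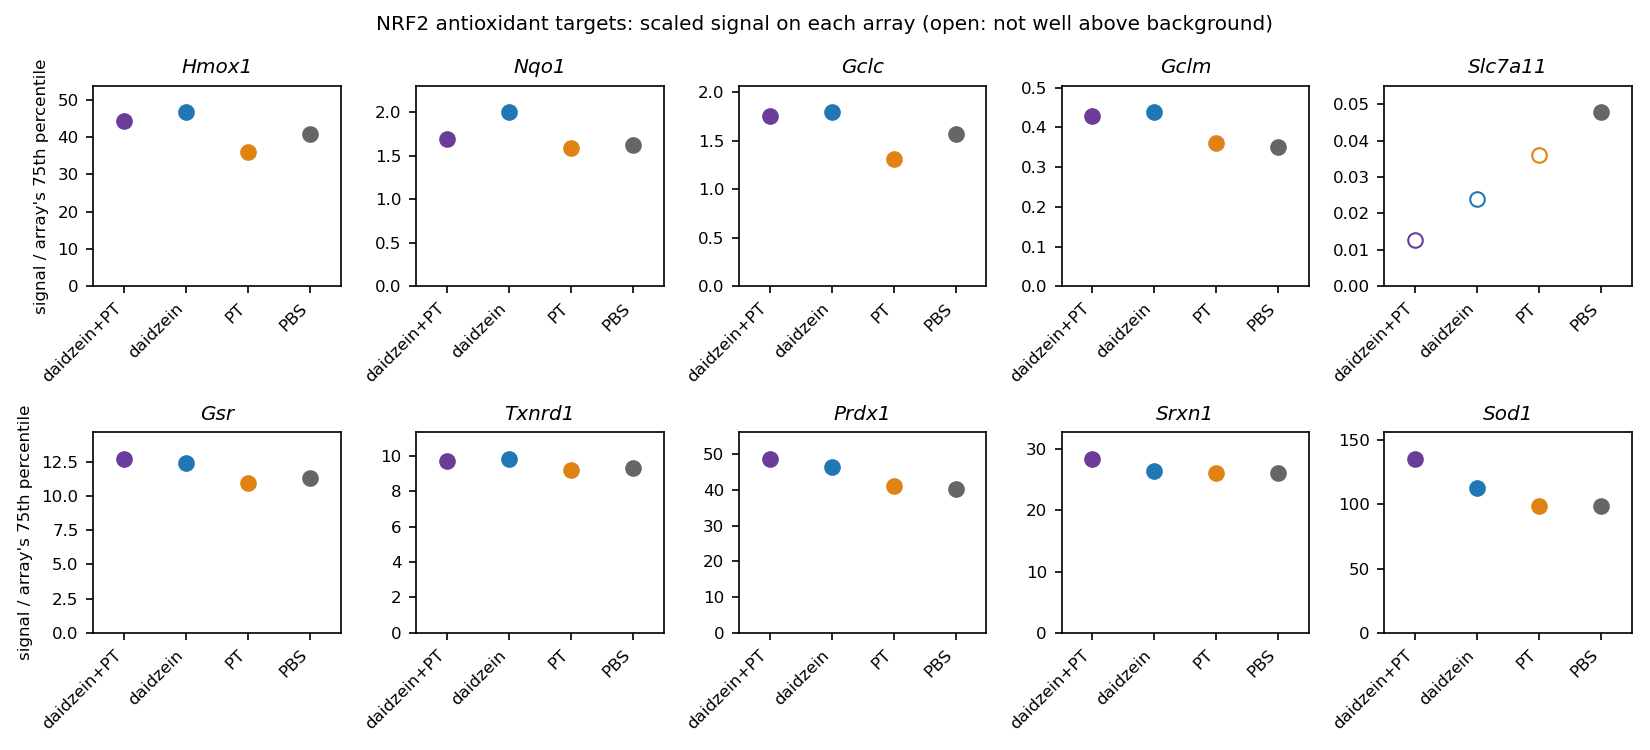
Scaled signal (signal divided by the array's 75th percentile, vertical axis from 0) of the 10 genes on the daidzein+PT, daidzein, PT and PBS arrays, 1 point per array, with open points not well above background. Sod1 stands at 136 on daidzein+PT and 98.4 on PBS, Nqo1 is highest on daidzein at 2.003, and Slc7a11 has its only filled point on PBS.

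Among the enzymes that detoxify heme and quinones, Hmox1 encodes heme oxygenase 1, which splits heme into biliverdin, iron and carbon monoxide. Its brighter probe (chr8:77624207-77624266, mm9) gave a scaled signal of 44.3 on daidzein+PT, 46.7 on daidzein, 36.0 on PT and 40.8 on PBS. The PT array was the lowest. The log2 difference was 0.19 for daidzein over PBS, 0.12 for daidzein+PT over PBS and -0.18 for PT over PBS. Against PT, daidzein+PT was higher by 0.30, or 1.23-fold, which is 2.66 times the SD of a difference at that brightness. In that comparison 13.6% of all genes had a higher difference. The dimmer probe read 4.46 on daidzein+PT, 4.50 on daidzein, 3.24 on PT and 3.98 on PBS, so both probes put the 4 arrays in the same order. Its difference was 0.46 for daidzein+PT over PT and -0.30 for PT over PBS. This dimmer probe reads the transcript from base 324 (chr8:77620797-77620856), far upstream of the brighter probe at base 1290. It is shown in whole as a second probe of the gene, though both probes read the same RNA on the same 4 arrays.
Hmox1 probe: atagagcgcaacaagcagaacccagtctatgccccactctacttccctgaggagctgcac

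Nqo1 encodes a quinone reductase that uses NAD(P)H and is a standard reporter of NRF2 activity. Its probe (chr8:109912440-109912499, minus strand) read 1.70 on daidzein+PT, 2.003 on daidzein, 1.59 on PT and 1.62 on PBS. Only the daidzein array stood apart. Daidzein over PBS was 0.30, or 1.23-fold and 2.15 SDs, whereas daidzein+PT over PBS was 0.07 and PT over PBS -0.03. For daidzein over PBS, 9.06% of all genes had a higher difference. Daidzein+PT was lower than daidzein by 0.24 on the log2 scale. Its departure from additivity (the PT difference with daidzein less that without it) was -0.21, beside an SD of 0.20.

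Gclc and Gclm encode the catalytic and the modifier subunit of glutamate-cysteine ligase, the rate-limiting enzyme of glutathione synthesis. Gclc (chr9:77641296-77641355) read 1.76 on daidzein+PT, 1.80 on daidzein, 1.31 on PT and 1.57 on PBS. The PT array was the low one, at -0.26 against PBS (1.88 SDs). Daidzein+PT over PT was 0.42, or 1.34-fold and 3.02 SDs, while daidzein over PBS was 0.19. Of all genes, 8.29% had a higher difference for daidzein+PT over PT. Gclm read 0.429 on daidzein+PT, 0.438 on daidzein, 0.360 on PT and 0.350 on PBS. Both arrays with daidzein were the higher ones, also under median scaling, with differences from PBS of 0.30 for daidzein+PT, 0.33 for daidzein and 0.04 for PT. Gclm is among the dimmest genes, where the SD of a difference is 0.33, so none of its differences exceeded 1 SD from 0; measured from the median of all genes, those of daidzein+PT and daidzein over PBS just did. Its probe matches the genome over 2636 bases (chr3:121962174-121964809, mm9) and so crosses a splice junction; it is shown because such a probe reads spliced RNA.
Gclm probe: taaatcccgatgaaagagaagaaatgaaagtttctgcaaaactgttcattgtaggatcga

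Slc7a11 encodes the cystine transporter subunit xCT, which supplies cysteine for glutathione. Its scaled signal was 0.0126 on daidzein+PT, 0.0238 on daidzein, 0.0359 on PT and 0.0478 on PBS, and only the PBS value was well above background. Set against the dimmest spots that passed on the other arrays, the PBS value was 1.23-fold above that of daidzein and 1.12-fold above that of PT. On the log2 scale these are 0.30 and 0.17, both under the SD of 0.33 of the dimmest genes. No decrease can be read from them. Before scaling, the PBS signal was 17.7 and the dimmest passing spot on PT 17.9. For daidzein+PT the PBS value lay under that array's dimmest passing spot, and no fold can be given. The probe starts at base 8325 of the transcript (chr3:50169700-50169759, minus strand), and no other probe of the gene was on the array.

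Gsr encodes glutathione reductase, which returns oxidised glutathione to its reduced form. The brighter probe (chr8:34808488-34808547) read 12.7 on daidzein+PT, 12.4 on daidzein, 10.9 on PT and 11.3 on PBS. Differences from PBS were 0.17 for daidzein+PT, 0.13 for daidzein and -0.05 for PT. The dimmer probe read 5.20 on daidzein+PT, 4.57 on daidzein, 4.76 on PT and 4.33 on PBS. The probes gave opposite signs for PT over PBS, at -0.05 for the brighter and 0.14 for the dimmer one, so Gsr has no settled direction with PT.

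In the thioredoxin and peroxiredoxin branch, Txnrd1 encodes the cytosolic selenoenzyme that reduces thioredoxin. It read 9.73 on daidzein+PT, 9.85 on daidzein, 9.23 on PT and 9.29 on PBS. Its range was 1.07-fold from lowest to highest. Prdx1 encodes a peroxiredoxin that removes hydrogen peroxide with electrons from thioredoxin. Its brighter probe (chr4:116371818-116371877) read 48.8 on daidzein+PT, 46.5 on daidzein, 41.2 on PT and 40.2 on PBS. The arrays with daidzein were again the higher ones under both scalings, and daidzein+PT exceeded PBS by 0.28, or 1.22-fold and 2.48 SDs. A higher difference in that comparison was seen in 14.7% of all genes. The other probe gave 0.28 for the same comparison and 0.14 for daidzein over PBS, where the brighter probe gave 0.21. Srxn1 encodes sulfiredoxin, which repairs overoxidised peroxiredoxins. It read 28.5 on daidzein+PT, 26.4 on daidzein, 26.2 on PT and 26.1 on PBS, a difference of 0.13 for daidzein+PT over PBS (1.105 SDs) that turned to -0.08 under median scaling.

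**Figure D2:**
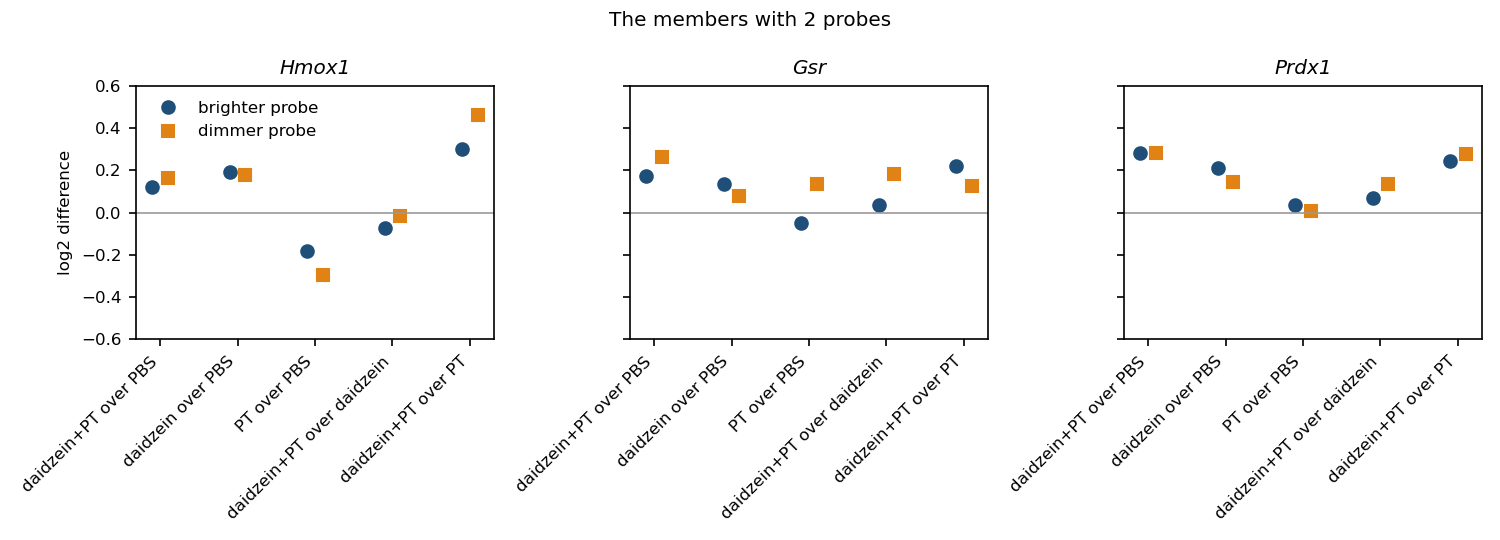
Log2 difference (vertical axis) for the 5 comparisons in the 3 genes with 2 probes, with circles for the brighter and squares for the dimmer probe. For Hmox1 the probes differ most for daidzein+PT over PT (0.30 and 0.46), and for Gsr they fall on opposite sides of 0 for PT over PBS (-0.05 and 0.14).

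Sod1 encodes the cytosolic copper-zinc superoxide dismutase, which turns superoxide into hydrogen peroxide. Its probe (chr16:90226509-90226568) read 136 on daidzein+PT, 112 on daidzein, 98.7 on PT and 98.4 on PBS. PT and PBS were nearly equal, daidzein was above both and daidzein+PT above all. Daidzein+PT over PBS was 0.46, or 1.38-fold and 4.08 SDs, and 8.31% of all genes measured in that comparison had a higher difference. Daidzein over PBS was 0.19, PT over PBS 0.01 and daidzein+PT over daidzein 0.27. Its departure from additivity was 0.26, beside an SD of 0.16. Its range over the 4 arrays was 1.38-fold, beside 1.37-fold for Gclc, and under median scaling Gclc had the wider one. Among 18349 genes with signal on every array, the 3 with the most similar pattern were Hspd1, Fam13a and Cmc2. Over the 4 arrays the log2 values less each gene's mean lay at a Euclidean distance from those of Sod1 of 0.0153 for Hspd1, 0.0181 for Fam13a and 0.0187 for Cmc2. Hspd1, a mitochondrial chaperone, had differences from PBS of 0.46 for daidzein+PT, 0.21 for daidzein and 0.02 for PT.

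Taken over the 9 measured genes, daidzein+PT over PBS had a median log2 difference of 0.16, against -0.04 over all 18560 genes measured in it. All 9 lay above the median of all genes, 7 of them by more than 1 SD and 2 (Prdx1 and Sod1) by more than 2 SDs. Above Prdx1 lay 14.7% of all genes measured in this comparison, and above Sod1 8.31%. How many of all genes passed 1 or 2 SDs was not counted, here or in the comparisons below. Over all genes the 5th to 95th percentile of this difference ran from -0.49 to 0.66. In each of the 5 comparisons all 9 members lay inside the 5th to 95th percentile of all genes. At 1.5-fold there were 0 members higher and 0 lower, against 5.94% of all genes higher and 3.09% lower. At 2-fold in either direction there were 0 members, against 3.07% of all genes. Scaling the arrays on their median instead of the 75th percentile turned the sign of the members' median (-0.04), as it moved the median of all genes to -0.24. Since such a scaling moves members and all genes alike, the directions below are read against all genes. Without the filter on dim probes the members' median less that of all genes was 0.064, against 0.196 with it, and 7 of the 9 lay above the median of all genes.

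Daidzein over PBS gave a members' median of 0.19, against -0.03 over 19014 genes. Again all 9 lay above the median of all genes, 7 by more than 1 SD and 2 by more than 2 SDs, with Nqo1 the farthest at 2.34 SDs. Above Nqo1 lay 9.06% of all genes. No member was at 1.5-fold, where 3.13% of all genes were higher and 2.41% lower, or at 2-fold, where 1.47% were. The other daidzein pair, daidzein+PT over PT, gave 0.25 against -0.01 over 18613 genes. There, 9 of 9 lay above the median of all genes (8 without the filter on dim probes), 6 by more than 1 SD and 5 by more than 2 SDs. Sod1 was the farthest at 4.09 SDs, and 7.46% of all genes lay higher. No member was at 1.5-fold, against 5.07% of all genes higher and 3.6% lower, and none at 2-fold, against 2.94%. These pairs share no array, and all 9 members were above the median of all genes in both, which was so of 34% of the 18349 genes measured on all arrays. In each pair the daidzein array also lay in the next slide column, and the part of this position in the result was not tested. Averaged over both pairs, the daidzein difference was 0.32 for Sod1, 0.31 for Gclc, 0.29 for Gclm, 0.25 for Hmox1, 0.23 for Prdx1, 0.20 for Nqo1, 0.18 for Gsr, 0.08 for Txnrd1 and 0.07 for Srxn1.

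PT over PBS gave a members' median of -0.01, against -0.03 over 18904 genes, with 6 members above and 3 below the median of all genes. More than 1 SD away were 2 members, Hmox1 and Gclc, both lower. Of all genes, 87.1% lay above Hmox1 and 94.1% above Gclc. No member was at 1.5-fold, where 2.59% of all genes were higher and 0.682% lower, or at 2-fold, where 0.931% were. Daidzein+PT over daidzein gave -0.02, against 0.00 over 18669 genes, with 4 members above and 5 below. Sod1 was more than 2 SDs higher and Nqo1 more than 1 SD lower. Above Sod1 lay 10.8% of all genes, and above Nqo1 90.7%. At 1.5-fold there was again no member, against 3.15% of all genes higher and 0.932% lower, nor at 2-fold, against 1.16%. In both PT pairs 3 of 9 members were above the median of all genes and 2 below, shares of 33.3% and 22.2%, beside 27.6% and 28.5% of all genes.

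**Figure D3:**
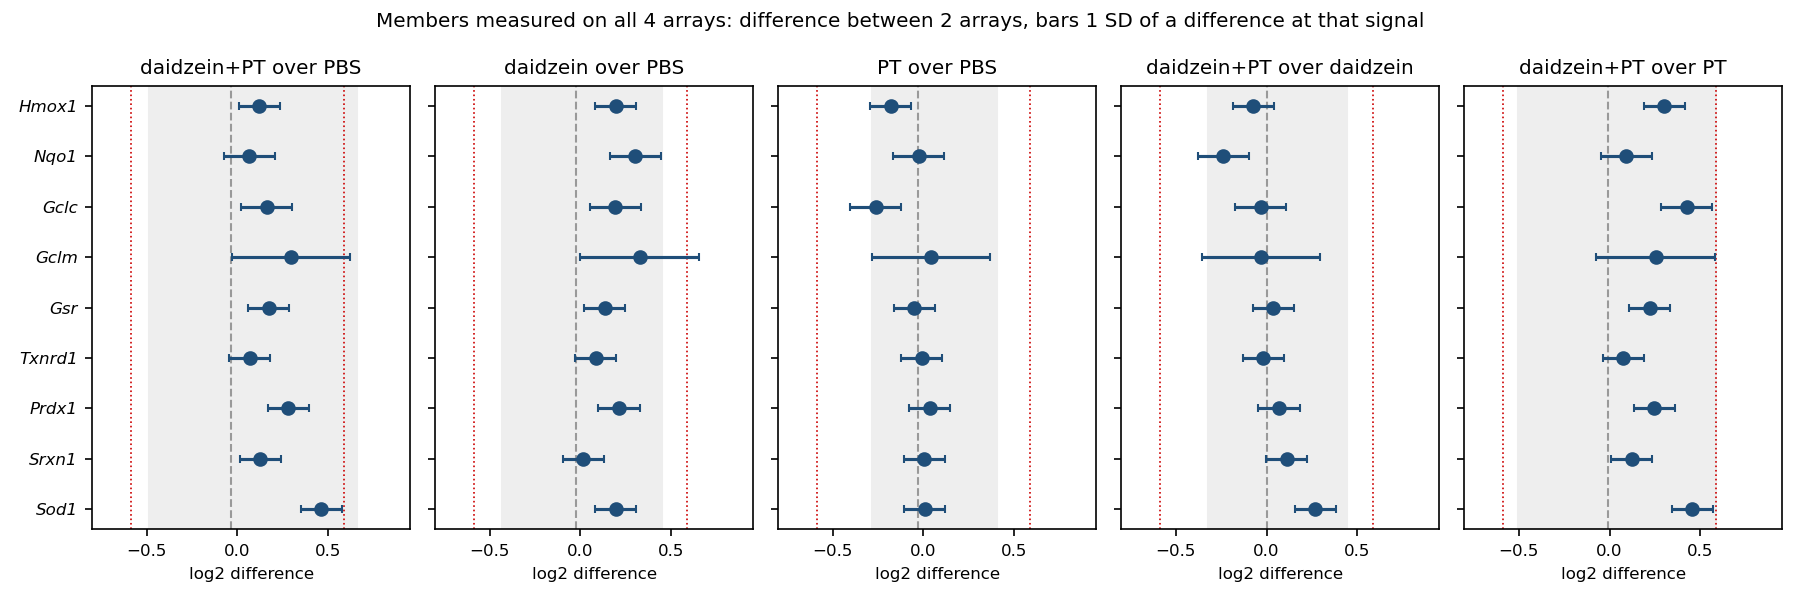
Log2 difference between 2 arrays (horizontal axis) for the 9 genes measured on all 4 arrays, 1 panel per comparison, with bars of 1 SD of a difference at that brightness; the grey band spans the 5th to 95th percentile of all genes, the dashed line is their median and the dotted lines mark 1.5-fold. All 9 points lie right of the dashed line for daidzein+PT over PBS, daidzein over PBS and daidzein+PT over PT, and none reaches a dotted line.

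Markers of fat cells differed far more than the NRF2 targets on the same arrays. All 10 adipocyte markers, among them Adipoq and Plin1, were well above background on every array. Their summed scaled signal was 713.8% of the PBS value on daidzein+PT, 438.9% on daidzein and 188.2% on PT. Summed preadipocyte and fibroblast markers (9 of 9 above background) were at 88.47% on daidzein+PT, 86.43% on daidzein and 99.17% on PT, with Ly6a lowest at -0.83 for daidzein+PT over PBS. Of 7 macrophage markers, 4 or 5 were above background on each array, with Adgre1 and Ptprc on none. Their sum, mostly of Itgam, was between 92.84% and 97.35% of PBS. Marco, a scavenger receptor and the only one of the 7 at 1.5-fold, was at 3.28 for daidzein+PT, 2.51 for daidzein and 0.75 for PT against PBS. Marco is dim, and normexp background correction gave 1.51 for daidzein+PT, 0.98 for daidzein and no more than 0.08 for PT. Of 7 mouse testis markers on the array 3 were above background, and their sum, mostly of Cyp17a1, was between 85.51% and 98.25% of PBS. The other two, the dim protamine genes Prm1 and Prm2, were at 0.60 and 0.62 for daidzein+PT over PBS, and neither was at 1.5-fold with normexp, median scaling or quantile normalization. The part of these markers' differences in the differences of the NRF2 targets was not tested.

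The regulators of the pathway differed little. Of 12 listed, 11 were measured, with a median of -0.08 for daidzein+PT over PBS, 0.01 for daidzein over PBS and -0.07 for PT over PBS, and none was at 1.5-fold. Nfe2l2, which encodes NRF2 itself, was at -0.10 for daidzein+PT, -0.12 for daidzein and -0.03 for PT against PBS. Keap1, its inhibitor, was at 0.03 for daidzein+PT, 0.01 for daidzein and -0.04 for PT. Both are given for their roles. Maff, a small MAF partner among the dimmest genes, was at 0.51 for daidzein+PT, 0.30 for daidzein and 0.36 for PT. Cul3, the ligase scaffold, was at -0.25 for daidzein+PT, and Nfe2l1, an NRF2 relative, at -0.27 for PT. Bach2, a repressor family member also among the dimmest genes, was at 0.25 for PT, under their SD of 0.33.

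Other genes known to respond to NRF2 reached larger differences than the 10 antioxidant genes. Of 25 listed, 24 were measured, and 6 were at 1.5-fold or more higher for daidzein+PT over PBS, 3 for daidzein and 1 for PT, where 5.94% of all genes were for daidzein+PT, 3.13% for daidzein and 2.59% for PT. Under median scaling the count for daidzein+PT was 3. Their medians were 0.19 for daidzein+PT (-0.02 under median scaling), 0.08 for daidzein and 0.00 for PT. Some genes stand in more than 1 of the lists given here. Gsta3, a glutathione S-transferase, was at 2.30 for daidzein+PT, 1.28 for daidzein and 0.99 for PT, and its 2 probes read alike. Me1, malic enzyme, which makes NADPH and also serves fat synthesis, was at 1.14 for daidzein+PT, 0.59 for daidzein and 0.35 for PT. Taldo1, transaldolase, was at 1.28 for daidzein+PT, 0.77 for daidzein and 0.30 for PT, and Tkt, transketolase, at 0.78 for daidzein+PT. These last 2 are enzymes of the pentose phosphate pathway.

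Genes of glutathione synthesis and use, the superoxide list and the thioredoxin and peroxiredoxin list were also read. For glutathione 14 of 16 genes were measured, with medians of 0.12 for daidzein+PT, 0.01 for daidzein and -0.04 for PT and none at 1.5-fold. Under median scaling the median for daidzein+PT was -0.08. The widest differences for daidzein+PT were Ggct (0.45), Glrx5 (0.45), Gpx4 (0.40) and Glrx (0.33). The 15 genes of the thioredoxin and peroxiredoxin system had medians of 0.18 for daidzein+PT, 0.09 for daidzein and 0.04 for PT. For daidzein+PT, 3 of them were at 1.5-fold higher, namely Msra (1.40), a methionine sulfoxide reductase, and the mitochondrial Txnrd2 (0.75) and Prdx3 (0.70), against 5.94% of all genes; Txnrd3 was at 0.46. Under median scaling 1 of the 15 was at 1.5-fold and the list's median for daidzein+PT was -0.02. Among the 4 genes that remove superoxide and hydrogen peroxide, mitochondrial Sod2 was at 0.58 for daidzein+PT and 0.32 for daidzein. The secreted Sod3 was lower, at -0.40 for daidzein+PT and -0.48 for daidzein, and for daidzein+PT Cat (catalase) was at 0.28 and Ccs, the copper chaperone of Sod1, at -0.07. The list's median was 0.10 for daidzein+PT (-0.1 under median scaling), 0.00 for daidzein and 0.02 for PT.

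Heme genes (8 of 8 measured) had medians of 0.32 for daidzein+PT, 0.12 for daidzein and 0.00 for PT, with 2 at 1.5-fold higher for daidzein+PT, against 5.94% of all genes. Under median scaling, and with each gene's probes averaged, 1 was. The list's median for daidzein+PT was 0.11 under median scaling. Alad was at 0.70, with Blvra, the biliverdin reductase downstream of Hmox1, and Urod at 0.32 each. Alas1, the first enzyme of heme synthesis, was at 0.87, but its 2 probes ranged from -0.04 to 0.87. Slc7a11 and several glutathione genes are also targets of the stress factor ATF4, and 10 ATF4 targets had medians of -0.06 for daidzein+PT, -0.03 for daidzein and -0.16 for PT. Atf3 was at 0.64 for daidzein+PT, and under 1.5-fold with normexp or median scaling, with Psat1 at 0.49, Phgdh at -0.27 and Ddit3 at -0.14. The 8 reference genes had medians of -0.01 for daidzein+PT, -0.03 for daidzein and -0.02 for PT, with Hprt at 0.43, Gapdh at 0.18, Ppia at 0.15 and Tbp at -0.01 for daidzein+PT.

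**Figure D4:**
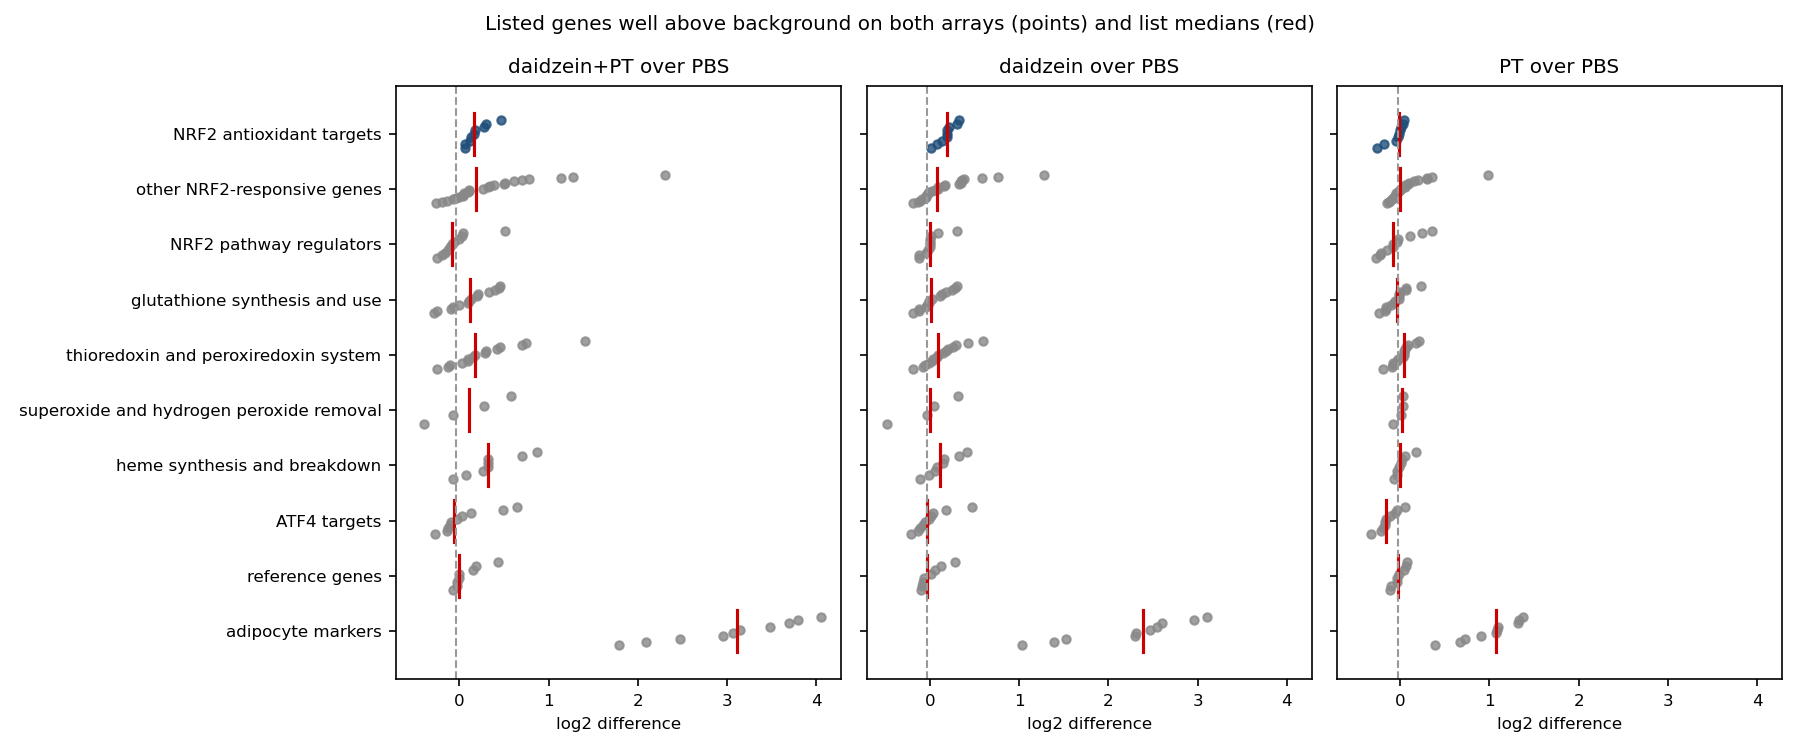
Log2 difference (horizontal axis) of each listed gene well above background on both arrays, 1 point per gene, with the list's median as a red bar and the median of all genes as a dashed line. The NRF2 targets lie near 0.16 for daidzein+PT over PBS and 0.19 for daidzein over PBS, while the adipocyte markers have medians of 3.11 for daidzein+PT, 2.39 for daidzein and 1.08 for PT.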

How the data were processed

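Per the labels, RNA of 3T3-L1 adipocytes was labelled with Cy3 and hybridised to 1 Agilent array per group. The deposited scanner files hold spot intensity on a linear scale, background-subtracted and detrended by Agilent Feature Extraction, version 10.7.1.1 per the file headers and 9.5.1.1 per the submitters' processing notes. The deposited series table, also intensity, served only as an alternative; each column matched its own array (Spearman 0.9999 or more) and any other less well (0.948 or less).

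Control spots and outlier spots (173 on daidzein+PT, 131 on daidzein, 156 on PT and 106 on PBS) were left out. The log2 signal less each array's 75th percentile was used, replicate spots were averaged and a gene was its probe of highest mean signal. Genes had to be well above background on both arrays. Of 55681 probes, 27235 had an accession in the RefSeq table, used for names; probe positions are on mm9. Tools were R 4.3.3, limma 3.58.1 (normexp), Python 3.11.15, numpy 2.4.6 and pandas 2.3.3, and the steps were tested on simulated data. Named are all 10 members, and in each gene list other than the cell type markers the genes at 2-fold or more against PBS, filled up to 4 by size. Nfe2l2, Keap1, Adipoq and Plin1 were named for their roles, and the other cell type markers after their values were seen. The members and lists were chosen with earlier results of these data known.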

Additional observations from a re-analysis of the deposited data

How the results depend on the processing

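Medians of the 9 measured members were recomputed with normexp background correction, no background subtraction, median scaling, quantile normalization and the deposited series table. They were also recomputed with a gene's probes averaged, without the dim-probe filter, which let in Slc7a11, and without the member of largest difference. They ranged from -0.04 to 0.16 for daidzein+PT over PBS, from 0.12 to 0.21 for daidzein over PBS, from -0.25 to 0.02 for PT over PBS, from -0.15 to 0.00 for daidzein+PT over daidzein, and for daidzein+PT over PT from 0.16 to 0.28. The low values of -0.0426 for daidzein+PT over PBS, -0.2472 for PT over PBS and -0.1517 for daidzein+PT over daidzein came with median scaling, which moved the median of all genes to -0.238, -0.266 and -0.132 for the same comparisons. It also changed the sign of 14 of 45 differences of single members, and relative to all genes nothing moves by construction. Without the filter, 1 member, Slc7a11, was at 1.5-fold lower in 4 comparisons: for daidzein against PBS, and for daidzein+PT against each of the other arrays. The median of all genes then was 0.096 for daidzein+PT over PBS and 0.052 for PT over PBS, because dim genes enter, and 7 members lay above it for daidzein+PT over PBS and 0 for PT over PBS; 8 did for daidzein+PT over PT. Under the other alternatives all 9 lay above the median of all genes for daidzein against PBS and for daidzein+PT against PBS or PT. No paired analysis was possible because each group has 1 array and no replicate numbers. Depth is not counted on arrays, and Slc7a11 is limited by signal over background.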
